A study of Mus musculus with 6 samples.

Results

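Il33/Opalin-type mature oligodendrocytes are the nuclei in which UMIs (unique molecular identifiers, each marking 1 captured RNA molecule) of a 6-gene set outnumbered those of a second 6-gene set. Nuclei were kept where 500 or more genes were detected and mitochondrial UMIs made up 5% or less. A mature oligodendrocyte gate then asked for at least 4 UMIs summed over Mog, Mag, Mobp, St18 and Prr5l and fewer than 8 UMIs of Meg3, a long non-coding RNA abundant in neurons. Within the gate, score A summed Il33, Opalin, C030029H02Rik, D7Ertd443e, Aspa and Ninj2, and score B summed Anln, A330049N07Rik, Sec14l5, 4930420G21Rik, Cdh19 and Cldn14. A nucleus was a member with A of at least 2 and at least 2 times B, so measured values chose the members. This gave 4339 members, 33.5% of 12933 gated nuclei and 10.8% of 40139 kept nuclei. The mirrored rule gave 3173 nuclei of the Anln/Sec14l5 type, the population used for comparison, and 5421 gated nuclei met neither rule. The study asked how chronic intermittent hypoxia (CIH), repeated falls in inspired oxygen, changes gene expression in the brainstem.

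All mice were wild-type C57BL6/J males, weaned at postnatal day 21. The 3 CIH libraries came from mice that spent postnatal days 22 to 43 in chambers where 60 seconds of nitrogen brought oxygen to 4.5 to 5% and air then restored 21% within 5 minutes, with 80 cycles a day over 8 hours for 21 days. The 3 normoxia libraries came from mice kept in room air over the same days. Nuclei of the frozen pons and medulla were sorted by DNA stain and sequenced with 10x Genomics 3′ chemistry. The number of mice behind a library is not stated, so p-values measure the spread between libraries, which may be technical.

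Mature oligodendrocytes wrap axons in myelin and pass metabolites to them. They occur as several transcriptional states, one of which is rich in Ptgds, the prostaglandin D synthase gene, and another in Klk6, a serine protease gene. Il33 encodes an alarmin cytokine stored in the nucleus, and Opalin a membrane protein of central myelin. Cells answer low oxygen through hypoxia-inducible factors (HIF), whose alpha subunits are marked for degradation by prolyl hydroxylases, and answer adrenal stress hormone through the glucocorticoid receptor. Both systems act by binding short DNA motifs near their target genes.

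The libraries were uneven, and the third of each group stood apart. In a chi-square comparison of member counts per gene, libraries 1 and 2 had a chi-square per gene of 1.32 (CIH) and 1.51 (normoxia), while the other pairs within a group had 4 to 6.02. Libraries held 4607 to 12032 barcodes, and members numbered 420, 406 and 1029 in CIH libraries 1 to 3 and 664, 775 and 1045 in normoxia libraries 1 to 3, with 1169787 to 2537361 summed UMIs and median depths of 1877 to 2773 UMIs per member. The median mitochondrial share of members was 0.424% in CIH 3 and 0.0994% to 0.174% in the other 5 libraries. CIH 1 and normoxia 2 shared 1563 barcodes, against 3 to 38 for every other pair of libraries. The shared barcodes had a median of 7872 UMIs in CIH 1 and 984 in normoxia 2, and the profiles under 1 barcode correlated at a median of 0.554 over genes, against 0.298 for neighbouring barcodes (300 barcodes compared). They accounted for 74 members of CIH 1 and 45 of normoxia 2. The shares of the type, the number of genes called and the fold change of Hif3a are therefore also given below without them.

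Members varied in which of the 6 genes they carried. Aspa, the aspartoacylase gene, had a UMI in 89.7% of members and D7Ertd443e in 84.4%. C030029H02Rik was found in 64.7%, Opalin in 62.9%, Ninj2 in 59.8% and Il33 in 51.6%, with a range over libraries of 44% to 60.8% for Il33. Both Il33 and Opalin were present in 35.1% of members and neither in 20.6%. Most members carried several of them, with 4 genes in 26.2%, 5 in 27.3% and all 6 in 15.6%, and 2.35% carried a single one. The median A score was 10 UMIs and the highest 106. Members were not free of the other set: Sec14l5 had a UMI in 66.8%, Cdh19 in 50.7% and Anln in 19%, and 464 members (10.7%) had a B score of 0. In the Anln/Sec14l5 type the same genes were found in 90.6%, 72.7% and 81.2%. The gate genes Mog and Mag differed little between the types, with median log2 differences of 0.01 and 0.08 over the 6 libraries. These values follow from the rule and describe the members without testing them.

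Genes outside the rule differed between the types in the same libraries, which is also a description, since the nuclei were split by expression. Levels are UMI counts summed over the nuclei of a library and scaled to a common total (CPM), and a difference is in log2 CPM with 1 count added. Of 6993 genes of at least 20 CPM in a type, 1495 (21.4%) were higher and 1598 (22.9%) lower in the Il33/Opalin type in 6 of 6 libraries, while a median difference above 2 was found for 68 (0.972%) and below -2 for 123 (1.76%). Slc13a1, a sulfate transporter gene, averaged 68.9 CPM in the Il33/Opalin type and 2.09 CPM in the Anln/Sec14l5 type. Kit, a receptor tyrosine kinase gene, averaged 78.5 against 3.54 CPM, and the synaptoporin gene Synpr 432 against 30.2 CPM. Ptgds averaged 3299 CPM with a range of 2766 to 4227 over libraries, against 351 CPM in the other type, a median difference of 3.47. Epas1, which encodes the HIF-2 alpha subunit, differed by 3.20. In the other direction Hmcn1, for the extracellular matrix protein hemicentin, averaged 4.64 against 191 CPM, though the library with the smallest gap reached only -2.17. Bace2, a protease gene, averaged 1.26 against 79.0 CPM, and Dlc1, known as a tumour suppressor gene, 27.9 against 666 CPM.

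**Figure D1:**
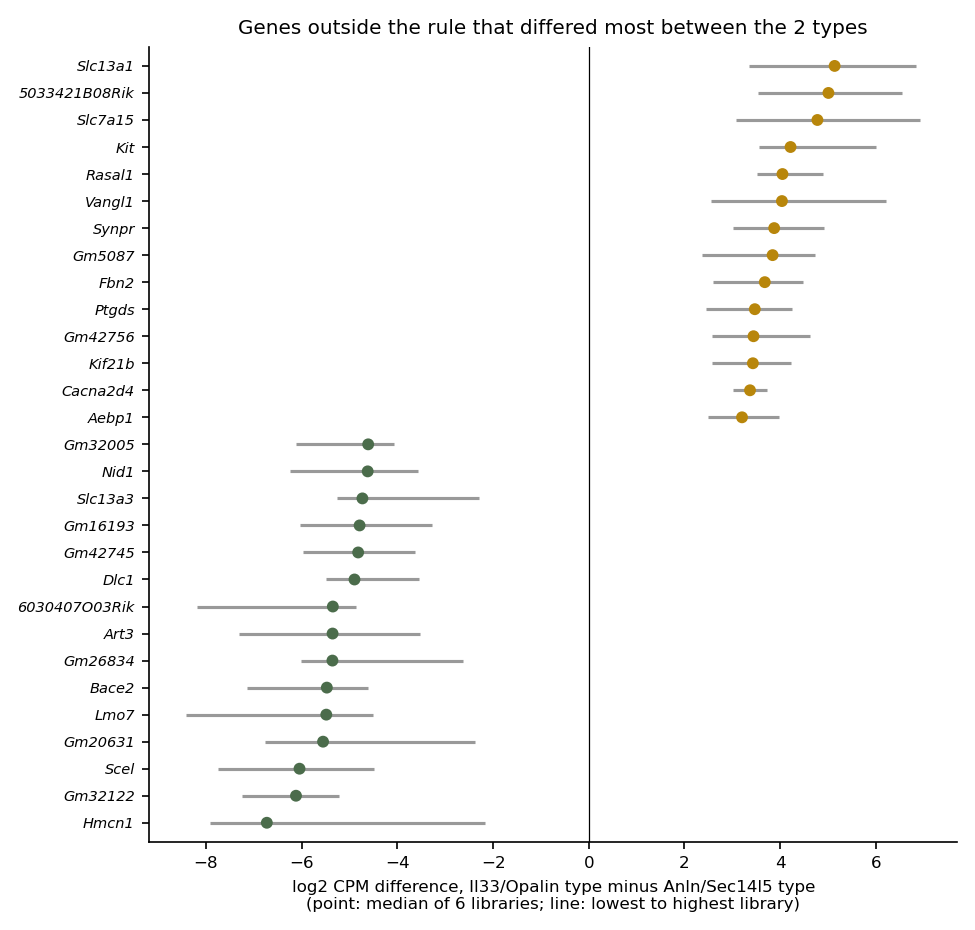
Difference in log2 CPM between the Il33/Opalin and the Anln/Sec14l5 type (x axis) for 14 of the genes outside the rule that were highest and the 15 that were lowest in the Il33/Opalin type (y axis). Points are medians of 6 libraries and lines run from the lowest to the highest library: Slc13a1 leads the genes higher in the Il33/Opalin type at a median of 5.14 and Hmcn1 the lower ones at -6.73.

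The label was checked against 2 published-marker lists that the rule does not use. All 6 genes of a Klk6-type list were lower in the Il33/Opalin type in 6 of 6 libraries, with Klk6 at a median difference of -3.68 and the calcium-binding protein gene S100b at -1.54. Of 8 genes of a Ptgds-type list, 5 were higher in every library (Ptgds, Qdpr, Grm3, Cryab and Car2) and 3 lower (Trf, Apod and Selenop), so this list went with the label only in part. Qdpr, a pteridine reductase gene, differed by 1.47, while Apod, an apolipoprotein gene, differed by -1.17. Ptgds was also compared across the threshold of the rule. It had a UMI in 92.8% of the 4198 members with A of at least 3 and in 75.9% of the 141 members with A of exactly 2. Outside the rule it had a UMI in 61% of the 100 gated nuclei with A of 1 and B of 0. In the 4830 gated nuclei with A of at least 2 but under 2 times B, and not of the Anln/Sec14l5 type, the figure was 75.6%. In that order the sets had 3440, 2360, 1140 and 1430 CPM of Ptgds. Their median depths were 2224, 1207, 1384 and 2584 UMIs.

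The Il33/Opalin type made up a smaller share of mature oligodendrocytes in every CIH library than in every normoxia library. Among gated nuclei it held 33.1%, 31.4% and 28.0% in CIH libraries 1 to 3 and 39.6%, 37.9% and 35.2% in normoxia libraries 1 to 3. The groups did not overlap. The means were 30.8% ± 2.63 (SD, n = 3) and 37.6% ± 2.25 (SD, n = 3), a difference of -6.74 percentage points (two-sided exact permutation test, p = 0.1, the smallest that 20 assignments allow). The 95% Wilson intervals, which cover counting error only, ran from 26.5% to 35.8% over the CIH libraries and from 33.5% to 42% over the normoxia libraries, and those of CIH 1 and 2 overlapped with that of normoxia 3. Of nuclei of either type, the share was 56.9%, 54.7% and 49.3% under CIH and 66.5%, 62.4% and 61.3% under normoxia, a difference of -9.76 points that again reached the smallest possible p of 0.1 (exact permutation test). Of all kept nuclei the share was 9.66%, 9.13% and 9.67% against 14.1%, 11.7% and 11.1%, a fraction that dissection and sorting can set.

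Depth, stricter limits on nuclei and the shared barcodes moved these shares without turning their direction. After every nucleus was thinned to 1500 UMIs, which left out 665 to 2966 shallower nuclei per CIH library and 659 to 1784 per normoxia library, the share of gated nuclei was 33.1%, 31.2% and 30% under CIH and 40.7%, 38.2% and 32.8% under normoxia, so the groups overlapped (difference -5.82 points, exact permutation p = 0.2). The share of nuclei of either type stayed apart after thinning, at 49.7% to 51.9% against 54.0% to 63.6%. Where nuclei needed 1000 genes and 1% or less of mitochondrial UMIs, it overlapped, at 46.4% to 52.8% against 52.1% to 62.1% (difference -8.86 points, exact permutation p = 0.2), as did the share of gated nuclei (-5.87 points, p = 0.2) and that of all kept nuclei (-1.78 points, p = 0.4). With the shared barcodes left out of both libraries, CIH 1 and normoxia 3 both stood at 35.2%, and the difference among gated nuclei was -6.3 points (exact permutation p = 0.2). Of nuclei of either type the groups then stayed apart, at 49.3% to 60.8% under CIH and 61.3% to 66.5% under normoxia (-9.04 points). Of all kept nuclei they overlapped, with CIH 1 at 12.4% and normoxia 3 at 11.1% (-2.48 points, exact permutation p = 0.2). Under a stricter rule (A of at least 3 and B of 0) the share of gated nuclei was 2.32% to 3.32% under CIH and 2.92% to 3.43% under normoxia and overlapped. Among nuclei of either strict type it was 53.0% to 60% against 66.7% to 74.2%.

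**Figure D2:**
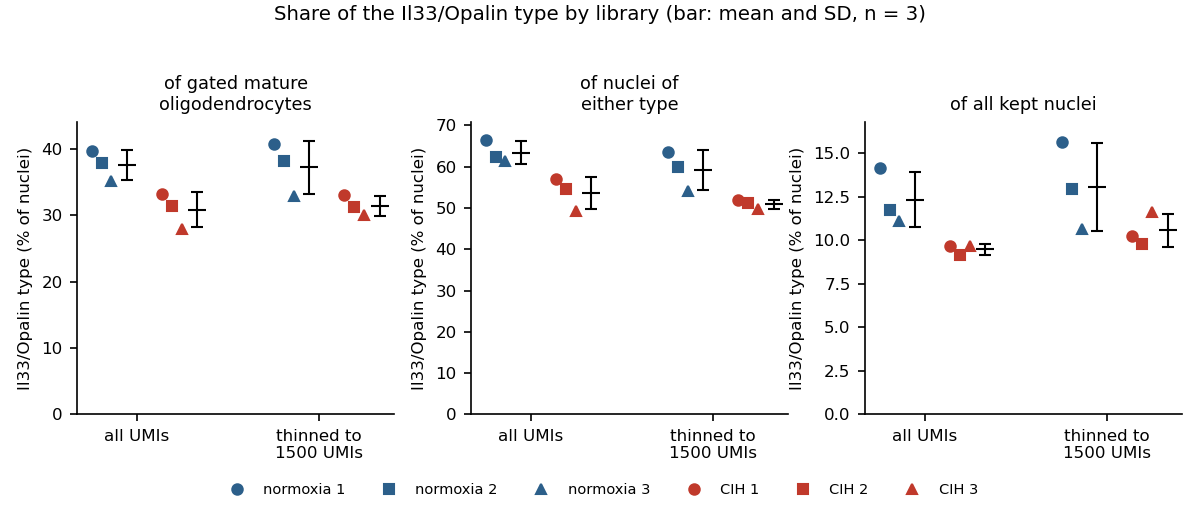
Percent of nuclei that were of the Il33/Opalin type (y axis), by library, for 3 denominators and with all UMIs or thinned to 1500 UMIs (x axis); bars give the mean and SD of 3 libraries. With all UMIs the 3 CIH libraries sit below the 3 normoxia libraries in each panel, and after thinning they stay apart only among nuclei of either type.

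The genes that define the split could be tested in all gated nuclei, which they did not choose. Aspa, whose product cleaves N-acetylaspartate, stood at 913, 925 and 823 CPM under CIH and 1163, 1101 and 1239 CPM under normoxia, with no overlap, a pattern found for 6.85% of all genes on the lower and 6.72% on the higher side. Its log2 fold change was -0.40 (SE 0.0748), with an adjusted p of 0.221 by edgeR's quasi-likelihood test over 13934 genes. That test called 0 genes in the gate (0%), with 1132 (8.12%) at an unadjusted p under 0.05, DESeq2 called 64 (0.459%), and edgeR with the replicate block described below called 9 (0.0646%). The log2 fold change was -0.25 for Ninj2, -0.28 for Opalin, -0.44 for C030029H02Rik, -0.21 for Il33 and -0.12 for D7Ertd443e, and none of the 6 passed. For the 6 genes of the other set the values ran from -0.25 for 4930420G21Rik to 0.14 for Cdh19. These levels and the shares above rest on the same counts and are not independent. Within the members the 6 genes ran from -0.35 for C030029H02Rik to 0.03 for D7Ertd443e, with Aspa at -0.32. Within the Anln/Sec14l5 type they ran from -0.23 for Aspa to 0.19 for C030029H02Rik. Whether the shares moved with the level of these genes per nucleus was not tested.

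Within the Il33/Opalin type, no gene passed the test between CIH and normoxia. Of 11151 genes tested, edgeR called 0 (0%) at an adjusted p under 0.05, while 718 (6.44%) had an unadjusted p under 0.05. Every CIH library lay above every normoxia library for 625 genes (5.6%) and below for 696 (6.24%). Replicate numbers carry no stated pairing. Deviations from the group means correlated at 0.38 between the third libraries. For numbers 1 and 2 the correlations were 0.11 and 0.153 within a number and 0.14 and 0.15 across them. The block on that number, called the paired fit below, is thus an assumption. With it edgeR called 25 genes (0.224%), 19 higher and 6 lower under CIH, among them the gate gene Mobp, whose p is not used. DESeq2 without the block called 17 genes (0.152%), all higher, and 15 of them were among the 25. Leaving out CIH 3 gave 20 calls, leaving out both CIH 3 and normoxia 3 gave 161, and leaving out any other single library 0 or 1. Without the shared barcodes the count was 0 when they were dropped from normoxia 2 and 1, Hif3a, when they were dropped from both libraries. The genes below are described by their values, and those called in the paired fit are named as such.

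**Figure D3:**
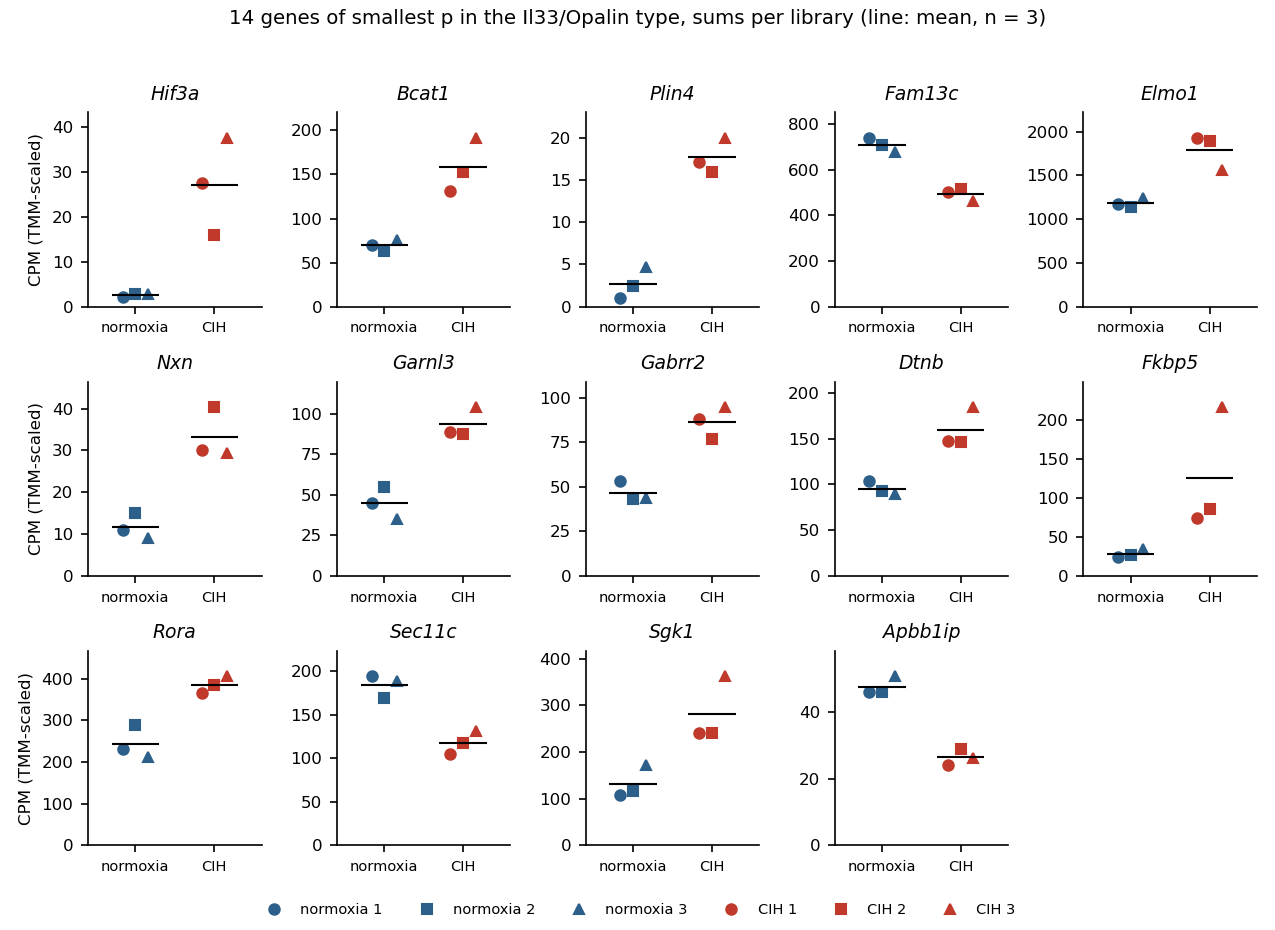
Level in the Il33/Opalin type (y axis, CPM scaled by TMM, a correction for library composition) of 14 genes among those of smallest p, by group (x axis); each point is the sum over the members of 1 library and the line is the mean of 3. The groups do not overlap for any of the 14 genes, 11 of which were higher and 3 lower under CIH. Over all genes tested, 5.6% lay higher and 6.24% lower without overlap. The 14 were picked by p in these same sums, so their lack of overlap is a description. CIH 3 sits well above the other CIH libraries for Fkbp5 and Sgk1.

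Hif3a had the smallest p. It encodes a HIF alpha subunit whose isoforms include inhibitors of the other alpha subunits. Members held 32, 21 and 96 Hif3a UMIs in CIH libraries 1 to 3 and 4, 6 and 6 in normoxia libraries 1 to 3, or 27.5, 16 and 37.7 CPM against 2.07, 2.90 and 2.85 CPM. Every CIH library was above every normoxia library, with CIH 3 the highest. Hif3a passed the filter on low counts through its CIH libraries, so this separation and the p-values are a description. The log2 fold change was 3.38 (SE 0.394), with an adjusted p of 0.0712 by edgeR, 0.00112 with the replicate block and 1.18e-06 by DESeq2. It was 3.00 without CIH 3 and 3.4 without the shared barcodes in both libraries. Without member nuclei that carried 2 or more UMIs of markers of other cell types it was 3.72. Those markers covered astrocytes, endothelial cells, microglia and macrophages, mural cells, fibroblasts, granule neurons and oligodendrocyte precursors. General neuron markers and Schwann cell markers were not counted. The gene lies on chromosome 7 (17031507 to 17062427, minus strand, GENCODE M21 on GRCm38) and overlaps 4833404L02Rik on the opposite strand.

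The transcript was carried by a small part of the members. At 1500 UMIs per nucleus, a Hif3a UMI was found in 4.88%, 2.44% and 5.58% of members under CIH and in 0.358%, 0.512% and 0.412% under normoxia, out of 328, 328, 771, 559, 586 and 728 members deep enough (difference 3.87 points, two-sided exact permutation p = 0.1, the smallest possible). Unthinned, the shares were 6.19%, 4.68% and 7.87% against 0.602%, 0.774% and 0.574%. Of 126 CIH members with the transcript, 108 had a single UMI and none more than 4. Free RNA in a droplet can give such UMIs, so granule neurons, selected outside the gate by at least 2 UMIs of Gabra6, Fat2 and Cbln3, served as background. At the same depth they had a Hif3a UMI in 0.122%, 0.402% and 1.27% of nuclei under CIH, each below the members of the same library, and unthinned in 2.52%, 1.80% and 3.66%, at median depths of 2884 to 3554 UMIs. Under normoxia the granule neuron values at 1500 UMIs were 0.256%, 0% and 0%, where 0 of 514 nuclei in normoxia 2 allows a share of up to 0.584%. Unthinned they were 2.18%, 1.34% and 0.56%, at median depths of 3004 to 3785 UMIs. In each normoxia library the members at 1500 UMIs were above the granule neurons, on 2, 3 and 3 member nuclei with the transcript. Unthinned, they were below the deeper granule neurons in normoxia 1 and 2 and near them in normoxia 3. Whether the normoxia members exceeded background was not tested. At 1500 UMIs the background itself averaged 0.596% under CIH and 0.0853% under normoxia (exact permutation p = 0.2). The Anln/Sec14l5 type had 0.347%, 0.312% and 2.01% under CIH, and 0.326%, 0% and 0.344% under normoxia, so CIH 3 stood above its other 5 libraries.

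Among gated nuclei, mean Hif3a under CIH was highest in the Il33/Opalin type and lowest in the Anln/Sec14l5 type. It averaged 27.1 CPM ± 10.9 (SD, n = 3) in the Il33/Opalin type, 17.9 ± 4.16 in gated nuclei of neither type and 8.86 ± 6.05 in the Anln/Sec14l5 type, against 2.55, 5.21 and 1.19 CPM under normoxia. In every CIH library the Il33/Opalin type was above the Anln/Sec14l5 type, but in CIH 2 gated nuclei of neither type were higher still, at 18.2 against 16 CPM. Nuclei outside the gate had 4.03, 3.85 and 19.5 CPM under CIH and 1.58 to 1.99 CPM under normoxia, so CIH 3 was high there as well. The Anln/Sec14l5 type, at 4.27, 6.59 and 15.7 CPM under CIH, was above these nuclei in CIH 1 and 2 and below them in CIH 3. With all 6 libraries Hif3a did not pass the filter on low counts in the Anln/Sec14l5 type, so the difference in its response between the types could be fitted only in 4 settings that each left out a library. There the log2 difference (Il33/Opalin minus Anln/Sec14l5) was 0.30 without CIH 1, 0.72 without normoxia 1, 1.04 without normoxia 2 and 0.44 without normoxia 3, and none passed (limma adjusted p = 0.988 to 1).

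Other members of the oxygen-sensing pathway did not pass. Of 10 listed HIF subunits and oxygen sensors, 9 were measured, 3 were higher and 6 lower under CIH, and the median log2 fold change was -0.02, near the 0.01 of all genes. Hif3a was the only one called in the paired fit. Epas1 stood at 37.0, 41.9 and 37.7 CPM against 25.4, 30.5 and 20.9 CPM without overlap (log2 fold change 0.60, SE 0.194, edgeR adjusted p = 0.620). Egln1, for the main prolyl hydroxylase that marks HIF alpha subunits, changed by 0.45 and Arnt, for the shared beta subunit, by -0.28. Of 28 classical HIF target genes, 20 were measured, 11 higher and 9 lower, with a median of 0.09 that turned to -0.13 without CIH 3. Cited2, a HIF-induced regulator, had 6.02, 6.1 and 10.2 CPM against 2.07, 1.93 and 3.8 CPM, and Vegfa, the vascular growth factor gene, 42.1, 46.5 and 33.4 CPM against 27.5, 30 and 31.8 CPM. Their adjusted p-values by edgeR were 0.563 and 0.757. Cited2 passed the filter on low counts through its CIH libraries, so its values are a description.

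Genes known to be induced by glucocorticoids lay on the higher side as a list. Of 22 listed genes, 16 were measured, and all 16 had a log2 fold change above 0, against 51.5% of all genes, with a median of 0.83. The Anln/Sec14l5 type was alike: 15 of the 22 were measured there and 14 were above 0, with a median of 0.77. In 7 of the 16 every CIH library lay above every normoxia library, against 5.6% of all genes. The list was chosen with earlier results of these libraries known and holds Hif3a, and Hif3a and Plin4 passed the filter on low counts through their CIH libraries, so these counts are a description. Without CIH 3 the median was 0.37 and 13 of 16 genes were above 0. Summed astrocyte markers in the members were 234, 219 and 602 CPM under CIH and 172 to 210 CPM under normoxia, and mitochondrial RNA was 1720, 2060 and 4670 against 1450 to 2180 CPM, so both moved with CIH 3 too. Without members that carried UMIs of other cell types, all 16 genes stayed above 0, with a median of 0.89. This removal did not clear the astrocyte signal: of 3 astrocyte markers still measured, 2 stayed above 0, Slc1a2 and Slc4a4. It also took a larger part of the members of CIH 3 than of any other library. Whether astrocyte RNA raised the values of the 16 genes was therefore not tested.

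Fkbp5 encodes a co-chaperone that lowers the hormone affinity of the glucocorticoid receptor and is itself a target of it. Its level was 73.9, 86.1 and 217 CPM under CIH and 23.8, 27.1 and 35.1 CPM under normoxia. CIH 3 was far above the other CIH libraries, and all 3 were above the normoxia libraries. The log2 fold change was 2.17 (SE 0.383), with an adjusted p of 0.214 by edgeR and 0.000942 with the replicate block. Without CIH 3 it was 1.47 and was then called. Fkbp5 (chromosome 17, 28399094 to 28517527, minus strand) overlaps other annotated transcripts on both strands, which the counts may share.

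Sgk1, for a kinase that regulates ion channels and transporters, was at 241, 241 and 363 CPM against 108, 116 and 172 CPM. Its log2 fold change was 1.10 (SE 0.208), with an adjusted p of 0.279 by edgeR and 0.000533 with the replicate block. Plin4 encodes a perilipin, a protein that coats lipid droplets. It rested on 20, 21 and 51 UMIs under CIH and 2, 5 and 10 under normoxia, or 17.2, 16 and 20 against 1.04, 2.42 and 4.75 CPM. The CIH libraries were close to each other and well above the normoxia libraries. The log2 fold change was 2.67 (SE 0.403), with an adjusted p of 0.167 by edgeR and 0.0115 with the replicate block. The metallothionein gene Mt1 had 107, 117 and 234 CPM against 70.5, 52.2 and 94.0 CPM and an adjusted p of 0.563 by edgeR, or 0.00863 with the block. Some of the list rested on CIH 3: Zbtb16, a transcription factor gene, had a log2 fold change of 0.90 with all libraries and 0.04 without CIH 3. Klf9, another transcription factor gene, was at 0.06. Of the receptor genes, Nr3c1 for the glucocorticoid receptor was at -0.15 and Nr3c2 for the mineralocorticoid receptor at 0.11, and neither passed.

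**Figure D4:**
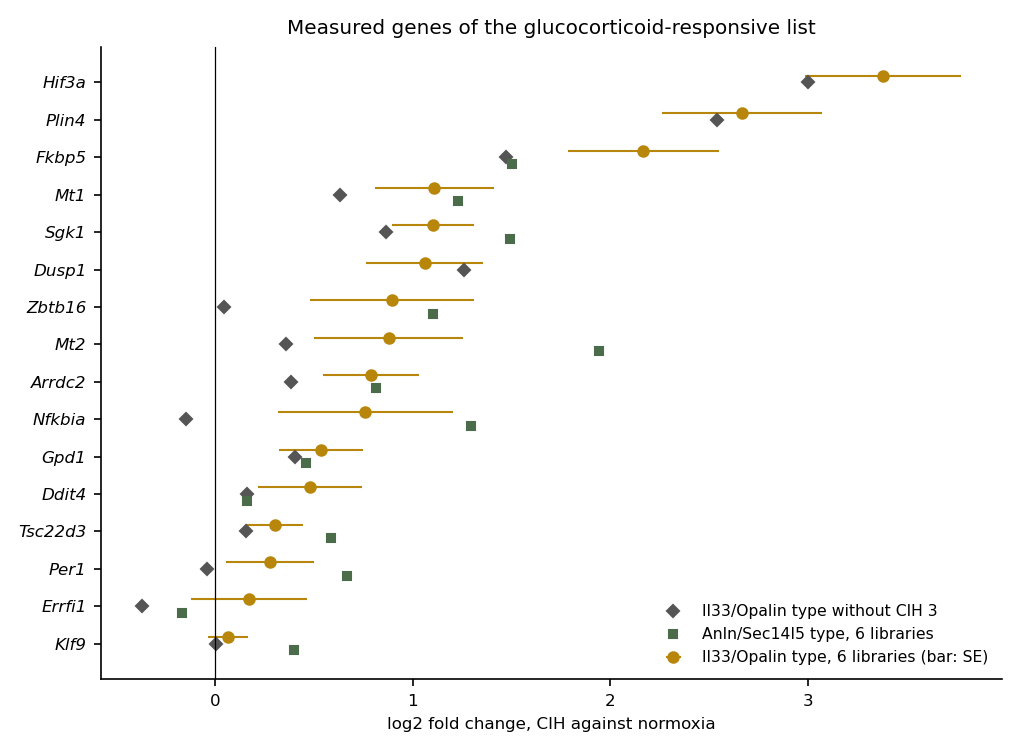
Log2 fold change between CIH and normoxia (x axis) of the 16 measured genes of the glucocorticoid-responsive list (y axis), in the Il33/Opalin type with all 6 libraries (bars: SE) and without CIH 3, and in the Anln/Sec14l5 type. All 16 values with 6 libraries lie above 0 and their median is 0.83, which moves to 0.37 without CIH 3.

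The sequence upstream of 3 of these genes is shown because they moved together in the paired fit and both the HIF and the glucocorticoid motif are short. Each line gives the 250 bases before a RefSeq transcription start on GRCm38.p6, 5′ to 3′ on the gene's strand. Capitals mark matches on either strand to the HIF cores ACGTG and GCGTG or to the glucocorticoid receptor half-site AGAACA and its full palindrome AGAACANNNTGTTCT. The windows are Hif3a at chr7:17062428-17062677, Fkbp5 at chr17:28486150-28486399 and Sgk1 at chr10:21993640-21993889, the last being the only one of 6 listed Sgk1 starts with the full palindrome, chosen after the match was seen.
Hif3a: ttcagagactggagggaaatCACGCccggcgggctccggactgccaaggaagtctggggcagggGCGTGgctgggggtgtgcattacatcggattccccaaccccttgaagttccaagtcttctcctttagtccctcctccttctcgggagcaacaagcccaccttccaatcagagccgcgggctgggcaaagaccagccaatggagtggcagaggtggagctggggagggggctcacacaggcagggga
Fkbp5: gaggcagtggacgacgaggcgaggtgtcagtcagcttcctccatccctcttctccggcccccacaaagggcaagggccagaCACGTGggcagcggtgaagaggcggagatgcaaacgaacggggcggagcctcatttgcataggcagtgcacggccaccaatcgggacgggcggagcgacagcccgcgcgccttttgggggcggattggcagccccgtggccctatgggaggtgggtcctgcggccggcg
Sgk1: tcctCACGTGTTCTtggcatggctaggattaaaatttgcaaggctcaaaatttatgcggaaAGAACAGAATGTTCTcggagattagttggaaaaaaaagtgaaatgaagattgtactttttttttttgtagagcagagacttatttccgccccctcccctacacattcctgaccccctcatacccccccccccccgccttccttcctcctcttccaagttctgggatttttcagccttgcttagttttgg

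The Hif3a window held 2 matches to GCGTG and none to the glucocorticoid motifs. In Fkbp5 the palindrome CACGTG counts as 2 matches to ACGTG, 1 on each strand. In Sgk1 the same palindrome overlaps a half-site, and the full palindrome contains 2 more half-sites, which makes 3. The Plin4 window at its single listed start held none of the motifs. Of 32851 RefSeq windows of this length, 38.6% held 1 of the HIF cores, 16.1% the half-site and 3 (0.00913%) the full palindrome. A match is a run of letters and no measure of binding, and response elements farther from a start were not searched.

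Other genes of small p act in metabolism and signalling. Bcat1 encodes the cytosolic aminotransferase of branched-chain amino acids. Its level was 131, 153 and 192 CPM under CIH and 69.4, 63.4 and 75.9 CPM under normoxia, with no overlap (log2 fold change 1.20, SE 0.156, edgeR adjusted p = 0.0947, or 0.00128 with the replicate block). Elmo1, whose product activates Rac through DOCK proteins, was at 1930, 1898 and 1556 CPM against 1175, 1134 and 1247 CPM, a log2 fold change of 0.60. Fam13c was the lower gene of smallest p, at 504, 516 and 463 CPM against 741, 707 and 679 CPM. The 3 CIH libraries lay close together below the normoxia libraries (log2 fold change -0.52, SE 0.0856, edgeR adjusted p = 0.189, or 0.00922 with the block).

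Of the remaining genes of smallest p, Nxn, for the thiol-redox enzyme nucleoredoxin, changed by 1.50 on the log2 scale and Garnl3 by 1.06. Gabrr2, a GABA receptor subunit gene, changed by 0.90, Dtnb, for beta-dystrobrevin, by 0.75 and the nuclear receptor gene Rora by 0.66. On the lower side Sec11c, for a signal peptidase subunit, changed by -0.63. These 6 genes were called in the paired fit. Rora moved to 0.23 and Kcnd2, for a potassium channel, from 0.90 to 0.36 without members that carried UMIs of other cell types. Apbb1ip, for a Rap1 effector that is abundant in immune cells, had a log2 fold change of -0.84 and was not called in either fit. The paired fit also called Malat1, a nuclear long non-coding RNA, at -0.35 and Dcc, the netrin receptor gene, at -0.40. Gli2, a hedgehog transcription factor gene, had 11.2, 15.2 and 44.0 CPM against 2.59, 6.77 and 3.32 CPM. Its log2 fold change of 2.56, called in the paired fit, became 1.63 without CIH 3. Gli2 passed the filter on low counts through its CIH libraries, so its values and call are a description.

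Genes of the myelin programme did not pass the test. Of 19 myelin genes outside the rule, 4 were higher and 15 lower, with a median log2 fold change of -0.07, and none was called with or without the block. Gjb1, for the gap junction protein connexin 32, had 36.1, 33.5 and 38.1 CPM against 48.2, 53.2 and 57.9 CPM without overlap (log2 fold change -0.56, SE 0.157, edgeR adjusted p = 0.563). The log2 fold change was -0.18 for Ugt8a, whose product makes galactosylceramide for myelin, and 0.46 for Cnp, a myelin enzyme gene, or 0.10 without CIH 3. Of 26 genes of cholesterol and fatty acid synthesis, 13 were higher and 13 lower, with a median of 0.02. Fasn, for fatty acid synthase, was at 0.72 and Lss, for lanosterol synthase, at -0.43, and neither passed. Among 14 transcription factors of the lineage outside the rule, 8 were higher and 6 lower. Sox10, a lineage-defining factor gene, was at -0.30 and Sox2 at -0.28. The lactate transporter gene Slc16a1 was at -0.53. The ferritin gene Fth1, for iron storage, was at 0.51 and was called in the paired fit (edgeR adjusted p = 0.0208), although its groups overlapped.

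Clock genes lay on the higher side with CIH 3 included. Of 15 measured genes, 14 had a log2 fold change above 0, against 51.5% of all genes, with a median of 0.37. Without CIH 3 the count was 8 and the median 0.14. In the Anln/Sec14l5 type 7 of 11 measured genes were above 0, with a median of 0.155. Hlf, for an output factor of the clock, had 9.46, 18.3 and 17.7 CPM against 3.63, 7.25 and 2.37 CPM. Its log2 fold change was 1.80 (SE 0.418, edgeR adjusted p = 0.458), and 1.65 without CIH 3. Hlf and Nr1d1, another gene of the list, passed the filter on low counts through their CIH libraries, so their values and these counts are a description. All 12 mitochondrial transcripts measured were above 0 with a median of 0.63, which became 0.10 without CIH 3. Of 5 immediate early genes measured, the phosphatase gene Dusp1 was at 1.06 and the synaptic gene Arc at -1.44, and neither passed.

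Markers of other cell types moved within the members, and their part in the results above was not tested beyond the removal of nuclei that carried them. That removal did not count the neuron and Schwann cell markers, so nuclei carrying only those stayed in. It also left some astrocyte markers above 0, as given above. All 8 astrocyte markers had a log2 fold change above 0 with a median of 0.95, which turned to -0.18 without CIH 3. Endothelial markers summed to 61.6, 13 and 199 CPM under CIH and 10.5 to 23.9 CPM under normoxia. Microglial markers went the other way: they summed to 61.6, 94.0 and 99.4 CPM against 123, 134 and 156 CPM, and all 6 measured genes were below 0, 5 of them without overlap, against 6.24% of all genes. Csf1r, the receptor that microglia depend on, had 7.74, 9.15 and 8.25 CPM against 17.1, 20.8 and 18.5 CPM (log2 fold change -1.16, SE 0.239, edgeR adjusted p = 0.393). Neuron markers summed to 507 to 582 CPM against 373 to 465 CPM. Nuclei outside the gate had 177 to 246 CPM of microglial and 2690 to 3220 CPM of neuron markers, above every member library, while their 240 to 952 CPM of astrocyte and 82.3 to 529 CPM of endothelial markers overlapped with CIH 3. Oligodendrocyte precursor markers summed to 37.6, 78.7 and 157 CPM against 46.9 to 75.8 CPM, granule neuron markers to 41.4 to 138 against 39.8 to 99.9 CPM, mural markers to 7.7, 17.6 and 60.7 against 7.53 to 12.2 CPM, fibroblast markers to 12 to 21.4 against 6.55 to 10.9 CPM and Schwann cell markers to 3.42 to 13.8 against 3.79 to 9.36 CPM. Outside the gate the precursor markers summed to 155 to 325 CPM, granule neuron markers to 89.5 to 389 CPM and mural markers to 42.5 to 164 CPM. Fibroblast markers summed to 41.9 to 128 CPM there and Schwann cell markers to 8.76 to 41.5 CPM. Of these sets only the fibroblast markers lay above every member library, and the others overlapped with at least 1. Of all the markers, Pmp2 of Schwann cells was at 0 in the members of every library.

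The response was not shown to differ between the types. The limma test of the difference, on 10087 genes, called 0 (0%), with 463 (4.59%) at an unadjusted p under 0.05, and edgeR's interaction test also called 0, with 419 at an unadjusted p under 0.05. In the Anln/Sec14l5 type edgeR made 0 calls among 10365 genes (0%), where 522 (5.04%) had an unadjusted p under 0.05, DESeq2 made 0 (0%) and edgeR with the replicate block 32 (0.309%). Its CIH libraries all lay above normoxia for 5.01% of genes and below for 5.36%. The 2 types share their libraries, so their values are given side by side. The log2 fold change of Fkbp5 was 2.17 in the Il33/Opalin type and 1.50 in the Anln/Sec14l5 type (difference 0.69, SE 0.225, limma adjusted p = 0.984). That of Sgk1 was 1.10 and 1.49 and of Fam13c -0.52 and -0.61. For Bcat1 it was 1.20 and 0.39, and the difference of 0.79 (SE 0.166) had an adjusted p of 0.984 by limma and 0.0576 by edgeR's interaction test. The levels of these genes also stood apart between the types: under normoxia Fam13c averaged 693 CPM in the Il33/Opalin type and 240 CPM in the Anln/Sec14l5 type. Bcat1 ran the other way, with 68.0 and 168 CPM.

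**Figure D5:**
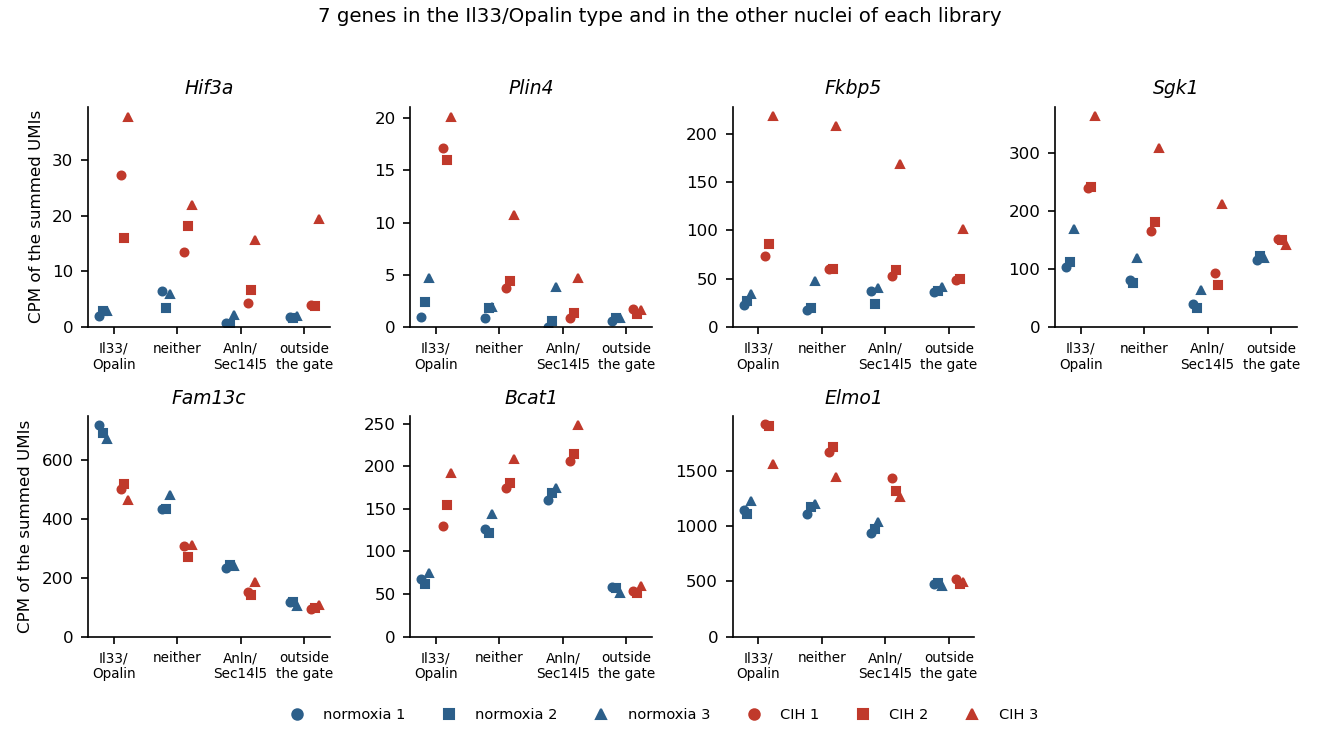
Level (y axis, CPM of the UMIs summed per library) of 7 genes in the Il33/Opalin type, gated nuclei of neither type, the Anln/Sec14l5 type and nuclei outside the gate (x axis); each point is 1 library. Fam13c is lower in the Anln/Sec14l5 type than in the Il33/Opalin type in both groups, Bcat1 is higher, and under CIH the mean of Hif3a and of Plin4 is highest in the Il33/Opalin type, though Hif3a in CIH 2 is higher in nuclei of neither type.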

How the data were processed

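The deposited matrices hold raw UMI counts per gene and nucleus, made by the authors with Cell Ranger. Per the file headers its version is 6.1.2. The submitters' processing notes list 3.1.0 as well as Seurat 4.0 and the build mm10. Whether intronic reads or strand were used in counting is not given in the sources used here. Of 32285 gene IDs, 32158 matched GENCODE M21. Members and gene lists were chosen with earlier results of these data known.

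UMIs of the members were summed per library and tested with edgeR 4.0.16 (quasi-likelihood, TMM scaling, filterByExpr, Benjamini-Hochberg over all genes tested, threshold 0.05), since nuclei are not replicates. The difference in response between the types was tested with limma 3.58.1 on within-library log2 CPM differences (prior count 1). Shares were compared by exact permutation over libraries. Within the types, p-values of the 18 genes of the rule were not used. The 12 genes that split the types were tested in all gated nuclei. DESeq2 1.42.0 was an alternative. Wilson intervals (95%) and limits for a count of 0 (3 counts) cover counting error only. No doublets were removed in the main values. As an alternative the nuclei with the highest Scrublet scores (scanpy 1.11.5), 0.8% per 1000 barcodes, were removed, which held 4.52% of members. The tests were checked on simulated data.

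The main fits used the group only. As an alternative, replicate numbers in the titles were used as a block, although they carry no stated pairing. Deviations from the group means correlated at 0.11, 0.153 and 0.38 for the same number. CIH and normoxia libraries 1 and 2 correlated as much across numbers (0.14 and 0.15), so only the third libraries stood out. These correlations come from the same counts, and p-values with the block rest on the assumed pairing. No pair of libraries agreed within sampling noise. Named genes were the rule's genes, the 15 of smallest p without predicted genes, up to 4 per list by p, 5 chosen from earlier results (Hif3a, Fam13c, Fkbp5, Sgk1 and Plin4) and the 15 highest and 15 lowest between types. Gli2, Kcnd2, Malat1, Mt1, Zbtb16 and Klf9 were named after their values were seen, as were Epas1 and the literature-list genes between the types. A gene that this rule names is not reported here.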

Additional observations from a re-analysis of the deposited data

How the results depend on the processing

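The alternatives that use the shared barcodes were chosen after seeing the data. Signs were compared for 67 genes, many of them picked for a small p or a call, which favours a stable sign. Of their 1155 values under alternatives, 1151 kept their sign. Among these genes Arnt turned to 0.29, Nr3c1 to 0.03 and Tcf7l2 to -0.40 under the stricter member rule, which left fewer nuclei. Klf9 turned to -0.01 without CIH 3 and normoxia 3. Signs also turned outside the 67: of 12 chaperone and unfolded-protein genes, 7 were above 0 with all libraries and 3 without CIH 3. Calls in the Il33/Opalin type numbered 17 with DESeq2, 242 without the filter on low counts, 25 with the replicate block, 80 with median UMIs as a covariate, 161 without CIH 3 and normoxia 3, 1 without the shared barcodes in both libraries, 1 where nuclei needed 1000 genes and 1% or less of mitochondrial UMIs, 6 without nuclei carrying UMIs of other cell types, and 0 to 20 with each library left out. In the Anln/Sec14l5 type they numbered 159 without the filter, 32 with the replicate block, 180 with the covariate, 49 without CIH 3 and normoxia 3 and 0 to 6 with each library left out. In all gated nuclei they numbered 64 with DESeq2, 52 without the filter, 9 with the replicate block, 9 with the covariate, 869 without CIH 3 and normoxia 3, 2 with normoxia 2 freed of shared barcodes and 0 to 223 with each library left out, the most without CIH 3. The paired exact test of the shares gave p = 0.25, the smallest for 3 pairs, with the same differences. All 14 alternatives kept the sign of each share of the type. The cause of these shifts was not tested. Members of median depth 1877 to 2773 UMIs limit what can be seen of genes at a few CPM.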

Other observations

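The 5 genes of smallest p for a difference in response between the 2 types did not pass the limma test, all at an adjusted p of 0.984. Csf1r, the microglial receptor gene, had a log2 fold change of -1.16 in the Il33/Opalin type and 0.08 in the Anln/Sec14l5 type. For Uchl5, a deubiquitinase gene, the values were -0.48 and 0.50, for Ighmbp2, a helicase gene, -0.63 and 0.61, for the dynein gene Dnah7b -0.36 and 0.78, and for Pdlim1 0.91 and 0.14. Other genes called in the paired fit included Gm47283 at 1.16, 8030451O07Rik at -1.44, the F-box gene Fbxw15 at -0.70 and Kndc1 at 0.41 on the log2 scale. DESeq2, but not the paired fit, called Slc4a4, a bicarbonate transporter gene abundant in astrocytes, at 1.25, and the cation channel gene Trpm3 at 1.16, which was 0.61 without members carrying UMIs of other cell types. Both were also called by edgeR without the filter on low counts and with median UMIs as a covariate, and Trpm3 without CIH 3 and normoxia 3. Chaperone and unfolded-protein genes were above 0 in 7 of 12 and immune and alarmin genes in 4 of 8, with medians of 0.16 and 0.01.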
